A study of Mus musculus with 2 samples.

Results

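Ureter fibroblasts were the nuclei that carried RNA of at least 3 of 12 fibroblast genes, namely Adam12, Nkain3, Dlk1, Agtr2, Grm7, Col14a1, Fmo2, Pdgfra, Lama2, Dcn, Lum and Ebf2. A nucleus also had to stay within limits on genes of other types: at most 2 of 7 smooth muscle genes, at most 1 of 4 endothelial genes, at most 2 of 8 epithelial genes and fewer than 2 of 3 cell division genes. This rule found 1851 fibroblast nuclei among the 14380 nuclei that had at least 300 genes and no more than 5% mitochondrial RNA, 932 of 5491 in the DNp63cKO library and 919 of 8889 in the control library. The members were thus chosen by the detection of these genes in the same nuclei, so the 12 genes and the genes of the limits are given below as a description only.

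The study sequenced RNA of single nuclei from ureters of newborn mice at postnatal day 0, with 1 library for each genotype. The DNp63cKO pool came from 14 mice of the genotype Pax2-cre/+;DNp63fl/fl;R26mTmG/+, that is, a cre driver under Pax2, floxed alleles of the ΔN form of p63 (gene Trp63) and a fluorescent reporter of cre activity. The control pool came from 13 mice whose genotype label is wt, and the labels do not say whether these mice carried the driver or the reporter. Both pools were flash-frozen ureter, and about 10000 nuclei were aimed for in each library. Pax2 drives cre in the epithelium of the developing ureter, and whether cre had acted in any fibroblast was not tested. Each pool is 1 sample, so no p-value is given. Every interval below is a 95% interval that covers counting error only, not the spread between mice. Intervals of CPM and of ratios also leave out the spread between nuclei, since they count each UMI as independent.

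Fibroblasts of the ureter lie both in the lamina propria beneath the urothelium and in the adventitia outside the muscle coat. They lay down the collagens, elastic fibres and proteoglycans of the ureter wall. In the embryonic ureter, mesenchyme around the epithelium receives Sonic hedgehog and WNT ligands from it, answers with BMP4, and separates into smooth muscle and fibroblasts. Ptch1, Hhip and Gli1 are the usual transcriptional readouts of hedgehog reception.

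The fibroblasts held 1175284 unique molecular identifiers (UMIs, counts of distinct RNA molecules) in DNp63cKO and 1023361 in control, with medians of 1133 and 909 UMIs and of 853 and 718 genes per nucleus. Urothelial RNA was found in the fibroblasts of both libraries. RNA of the 4 uroplakins, which belong to urothelium, stood at 2828 counts per 1000000 UMIs (CPM) in DNp63cKO fibroblasts and at 2284 in control fibroblasts, against 6623 and 7355 over all kept nuclei. If all of it is taken as free RNA from broken cells, these ratios put the share of free RNA in fibroblasts at an estimated 42.7% and 31.0%. Whether this RNA was free was not tested. Trp63 stood at 117 and 152 CPM in the epithelial nuclei of DNp63cKO and control and at 42.5 and 98.7 CPM in the fibroblasts, and since no source used here gives the deleted exons, these gene-level counts do not check the deletion. Y-linked RNA was higher in DNp63cKO fibroblasts, with Uty at 127 against 67.4 CPM, and Xist was lower, at 1428 against 1847 CPM, so the sex makeup of the pools may differ. Ratios within the 131 and 58 fibroblasts that had Y-linked UMIs and lacked Xist are among the alternatives of the closing section. The libraries had 58 cell barcodes in common, 2 of them among the fibroblasts.

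All 12 genes of the rule were more than 2-fold above their level in smooth muscle nuclei in both libraries. Smooth muscle and epithelial nuclei were chosen likewise, by 3 or more of the 7 muscle or 8 epithelial genes and at most 2 fibroblast genes. Adam12, a membrane metalloprotease, had 883 CPM in DNp63cKO fibroblasts and 803 in control, against 23.0 and 17.7 CPM in smooth muscle nuclei. Dlk1, an imprinted Notch-related membrane protein of immature mesenchyme, had 858 and 792 CPM. Agtr2, the type 2 angiotensin receptor, had 647 and 535 CPM, and Pdgfra, the platelet-derived growth factor receptor that marks fibroblasts, had 603 and 507 CPM. None of the 12 differed 2-fold between the libraries. The matrix genes among them, Dcn (decorin), Lum (lumican) and Col14a1, were slightly lower in DNp63cKO, with log2 ratios of -0.14, -0.15 and -0.26. The ratio of Lum was 0.03 without the sub-clusters called doubtful below. With the estimated free RNA subtracted, the ratios were 0.01 for Dcn, -0.01 for Lum and -0.08 for Col14a1. Grm7, a glutamate receptor gene, had the ratio farthest above 0, 351 against 236 CPM (log2 0.56), with 32 of its 413 DNp63cKO UMIs in 1 nucleus, and Ebf2 the one farthest below, 41.7 against 60.6 CPM (log2 -0.49). Marker genes of other types were also detected, some at high levels. The 18 urothelial markers summed to 8505 CPM in DNp63cKO and 7597 in control fibroblasts, against 20080 and 22162 over all kept nuclei. Mesothelial markers summed to 680 and 774 CPM, against 1642 and 1883 over all kept nuclei. Most of these fibroblast sums was Krt19 (490 and 656 CPM), while Lrrn4 and Bnc1 were at 0 in both libraries. Erythroid markers (682 and 908 against 623 and 401 CPM) and pericyte markers (1177 and 1188 against 715 and 795 CPM, mostly Ebf1 in DNp63cKO) were higher in fibroblasts. Of 12 glial markers Sox2 alone was at 0 in both libraries, and 4 in DNp63cKO and 5 in control reached 20 CPM, with a summed level of 222 and 235 CPM. Of 13 neuronal markers Chrna3 alone was at 0 in both, and the sums were 239 and 178 CPM. Of 9 cartilage markers 4 reached 20 CPM in each library, while Col2a1, Matn1, Matn3 and Comp were at 0 in both. The part of these RNAs in the results was not tested.

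**Figure D1:**
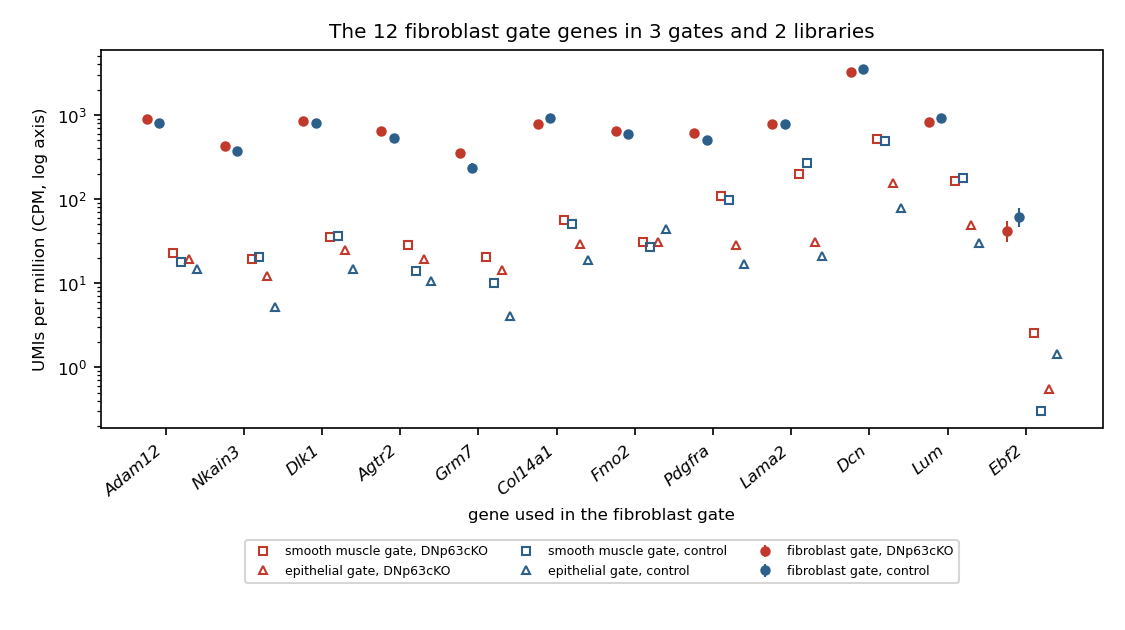
CPM of the 12 fibroblast genes of the rule (log axis) in fibroblast nuclei (filled circles with 95% Poisson intervals), smooth muscle nuclei (squares) and epithelial nuclei (triangles) of the DNp63cKO (red) and control (blue) libraries; Ebf2, at 0 in control smooth muscle, is drawn at 0.3. In every gene the fibroblast values lie above those of the other nuclei, which the rule itself produces.

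The 12 genes were not all seen in each nucleus. Exactly 3 of them were seen in 245 DNp63cKO and 261 control nuclei, and 6 or more in 337 and 279. With nuclei thinned to 700 UMIs, Adam12 was detected in 38.5% of 743 DNp63cKO and 33.0% of 658 control fibroblasts (50.1% and 44.3% unthinned), against 0.960% and 1.31% of smooth muscle nuclei. Dcn was detected in 74.7% and 79.3% of the thinned fibroblasts, and Nkain3, a gene of a sodium pump regulator family, in 20.5% and 19.1%. Just outside the rule, the 389 and 435 nuclei with 2 of the 12 genes that met the other limits had 1047 and 1466 CPM of Col1a1, the main chain of type I collagen. Just inside it, the nuclei with 3 genes had 2097 and 2850 CPM, and those with 6 or more had 5454 and 7328 CPM. Upk1b, a uroplakin, went the other way, from 2132 and 1892 CPM with 2 genes to 1600 and 1229 with 3 genes and 816 and 836 with 6 or more. The nuclei near the threshold therefore held less fibroblast RNA and more urothelial RNA than those far inside it.

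The fibroblast share of kept nuclei was 17.0% (16.0 to 18.0%) in DNp63cKO and 10.3% (9.71 to 10.99%) in control. Thinned to 700 UMIs, the shares were 15.0% (14.0 to 16.0%) and 8.91% (8.25 to 9.60%). Smooth muscle nuclei were also a larger share in DNp63cKO, 11.7% against 8.13%, so that fibroblasts made up 59.2% (56.8 to 61.7%) and 56.0% (53.5 to 58.4%) of fibroblast and smooth muscle nuclei together. Those last intervals overlap, and after thinning the shares were 57.7% and 56.2%. A share of nuclei depends on every other type in the library and on which nuclei survive freezing, so more fibroblasts and fewer recovered epithelial nuclei cannot be told apart. The limits on other types removed 788 DNp63cKO and 683 control nuclei that had 3 or more fibroblast genes, most often the muscle limit (545 and 464 nuclei).

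**Figure D2:**
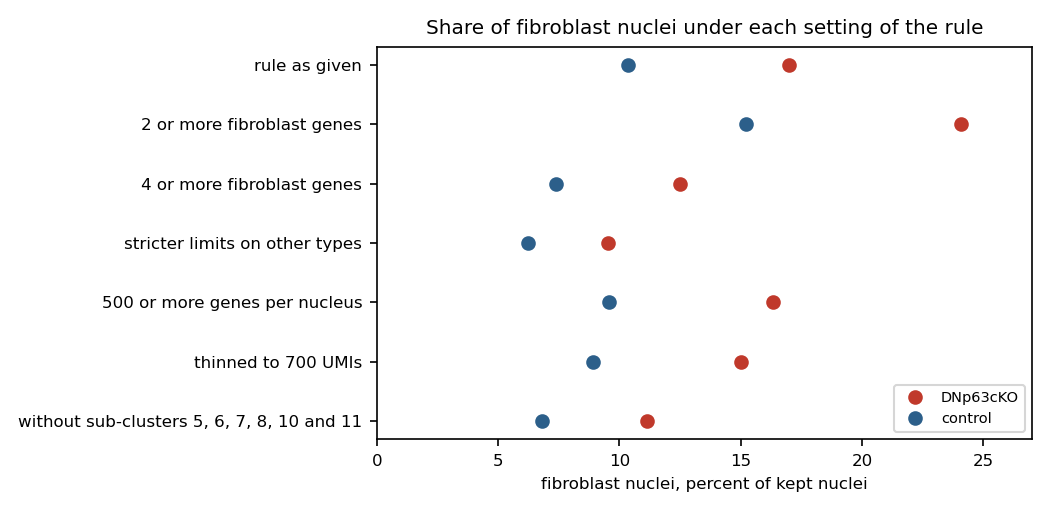
Fibroblast nuclei as a percent of kept nuclei (x axis) in DNp63cKO (red) and control (blue) under the rule as given and 6 other settings of it (y axis). The DNp63cKO share is above the control share under each of these settings, from 24.1% against 15.2% with 2 or more fibroblast genes to 9.52% against 6.22% with stricter limits on other types.

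Grouping the fibroblasts by their most variable genes gave 11 sub-clusters, which are given by number because their leading genes were read from the same nuclei. Sub-cluster 2 (127 DNp63cKO and 123 control nuclei) led with Unc13c, Nkain3, Frmd5 and Csmd3. Nkain3 stood there at 1214 CPM and at 259 CPM in the other fibroblasts, and Bmpr1b, a BMP receptor, at 239 against 45.1 CPM. Elastin (Eln) was at 713 CPM and Bmp4 at 218 CPM in these nuclei. Sub-cluster 3 (115 and 117 nuclei) led with Dlk1, Thbd, Scara5 and Itm2a. Dlk1 reached 2724 CPM against 542 in the other fibroblasts, Dcn 8198 CPM and Col1a1 11396 CPM, and Pi16, a marker of adventitial fibroblasts in many organs, was at 230 CPM there. Nkain3 was at 111 CPM in sub-cluster 3. Both genes belong to the rule and to the leading genes of sub-clusters, and whether single nuclei carry both was not tested.

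Sub-cluster 4 (125 and 98 nuclei) led with Mgat4c, Nav3, Ebf1 and Bmper. Ebf1, a transcription factor of mesenchymal and fat precursors, had 2137 CPM there against 370 in the other fibroblasts, and Fgf10, a growth factor that mesenchyme sends to epithelium, had 379 against 62.2 CPM. Sub-cluster 9 (53 and 33 nuclei) had Csmd1, Zfp804b and Sema5b among its leading genes, and had Lama2 at 1955 CPM. Sub-cluster 1 was the most numerous (192 and 235 nuclei) and the shallowest, with a median of 665 UMIs. It led with the liver genes Afp, Itih3, Ahsg and Apoa1, but all 44 of its Afp UMIs lay in 1 nucleus, while Dcn (3727 CPM) and Adam12 (907 CPM) were near the level of all fibroblasts.

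The other 6 sub-clusters led with genes of other cell types or of division and are doubtful as fibroblasts. Sub-cluster 5 (119 and 68 nuclei) led with Ap1s3, Nfe2l3, Fmo5 and Ppfibp2, also had the basal keratin Krt5 among its 10 leading genes, and held Upk1b at 2370 CPM. Sub-cluster 7 (59 and 86) led with the contractile genes Acta2, Tagln, Tpm2 and Myl9, with Acta2 at 6352 CPM and Adam12 at 69.1 CPM. Sub-cluster 8 (33 and 77) led with Ccl12, Mrc1, Pf4 and Stab1, genes of macrophages and vessels. Sub-cluster 6 (99 and 77) led with Myh8, Mybpc1, Ttn and Pif1, of which 22 of 23 Myh8 UMIs lay in 1 nucleus, and included the mitosis genes Nusap1 and Knl1. Sub-clusters 10 (9 nuclei) and 11 (6 nuclei) had Slc35f1, Ptprz1 and Nkain2 and Lrp1b, Hand2os1, Eml5 and Rbfox1 among their leading genes, and Sox10, a glial factor, was at 838 CPM in sub-cluster 10. Without these 6 sub-clusters 612 DNp63cKO and 606 control nuclei are left. List medians below are also given without them where they moved by over 1.5 times, and so are ratios that changed sign.

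**Figure D3:**
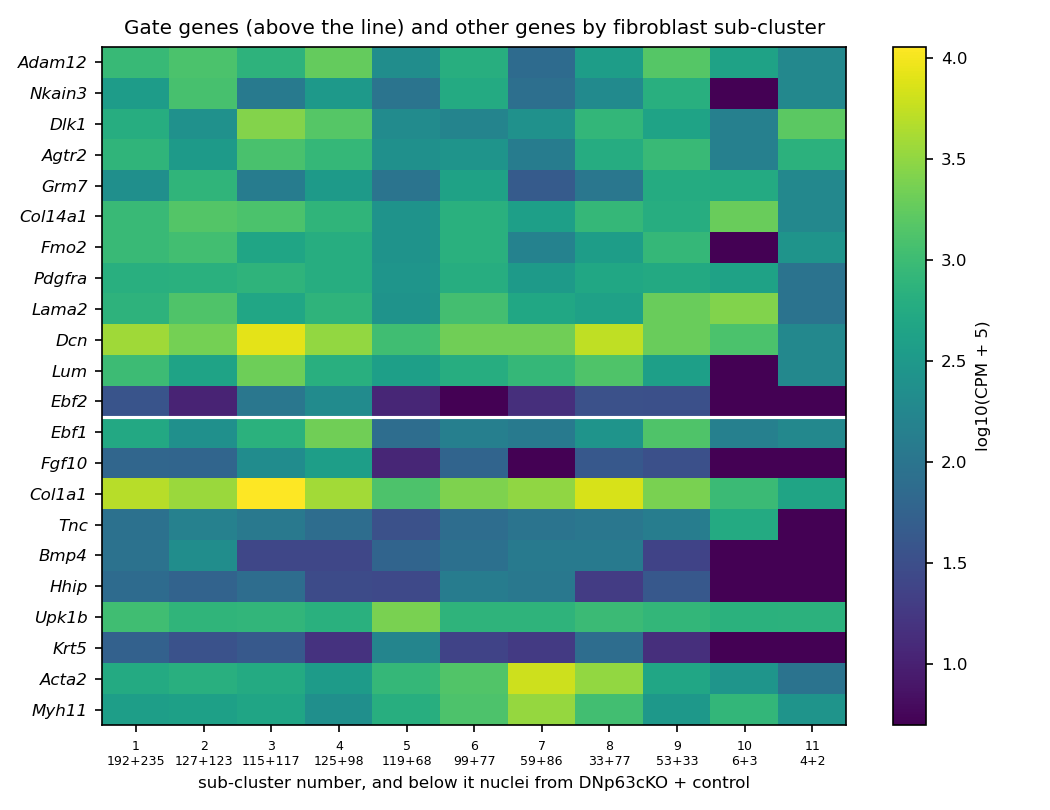
Level of genes (rows, colour as log10 of CPM + 5) in the 11 fibroblast sub-clusters (columns, with nuclei from DNp63cKO and control below). Dlk1 and Dcn are highest in sub-cluster 3 among the larger groups, Nkain3 in 2, Ebf1 and Fgf10 in 4, Upk1b in 5 and Acta2 in 7.

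Compared with smooth muscle nuclei, collagens and other matrix genes beyond those of the rule were higher in fibroblasts. Of 9521 genes with enough counts, 408 (4.29%) were 2-fold or more higher in fibroblasts in both libraries and 252 (2.65%) were 2-fold or more lower. Of 20 collagens measured, 15 were higher in both libraries, with medians of 1.53 in DNp63cKO and 1.71 in control on the log2 scale. Among fibroblast genes of textbook knowledge outside the rule, 17 of 23 were higher in both libraries, as were 11 of 20 elastic fibre genes, 9 of 17 imprinted growth genes and 9 of 21 secreted growth factors. The lists share members, so these counts are not separate: Col3a1 is in the fibroblast and collagen lists, and Fbln2 in the fibroblast and elastic fibre lists. Contractile genes were lower, 18 of 20 in both libraries. None of 15 Hox genes and 1 of 18 basement membrane genes were 2-fold higher in fibroblasts in both. Counting any difference in the same direction in both libraries, 31.3% of the 9521 genes were higher and 36.9% lower in fibroblasts.

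The genes farthest above smooth muscle in both libraries included Nav3 (410 and 324 CPM in DNp63cKO and control fibroblasts, 25.6 and 20.2 in smooth muscle) and Clec3b, which encodes tetranectin (167 and 158 against 6.39 and 7.58 CPM). Lpl, lipoprotein lipase, had 155 and 134 against 6.39 and 7.58 CPM. Ccbe1, which is needed for lymphatic growth, had 119 and 87.0 against 6.39 and 2.53 CPM, and Bmp6, a BMP ligand, had 139 and 135 against 6.39 and 8.85 CPM. Fgf10 stood at 118 and 86.0 against 8.95 and 6.32 CPM, and Tnxb, tenascin X, at 277 and 267 against 20.5 and 22.7 CPM. Apbb1ip, Sema3d, Fndc1, Zim1, Ak5, Smoc2, Plat and Pi16 completed the 15 genes, all 2.96 or more higher on the log2 scale in both libraries. Tbx18, the transcription factor of early ureteric mesenchyme, did not set the types apart, with 548 and 535 CPM in fibroblasts and 602 and 626 in smooth muscle. The genes 2-fold lower in fibroblasts numbered 448 without the doubtful sub-clusters.

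Between the genotypes, few genes of the fibroblasts differed 2-fold. Of 9816 genes with 20 or more UMIs in all and 20 or more CPM in a library, 80 (0.815%) were 2-fold or more higher in DNp63cKO and 68 (0.693%) were 2-fold or more lower, on the scale log2(CPM + 5). Each of those counting intervals lay on 1 side of 0, but the genes were chosen by these same ratios and counts, so this is a description only. The median ratio over the 11764 genes with 20 UMIs was 0.00, with 50.3% of genes higher and 49.7% lower. Of these, 0.944% were 2-fold higher and 0.765% were 2-fold lower. In smooth muscle nuclei 108 genes were higher and 146 lower by the same rule, of 9867, and in epithelial nuclei 92 and 106 of 9083. Without the doubtful sub-clusters the counts were 140 and 143.

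**Figure D4:**
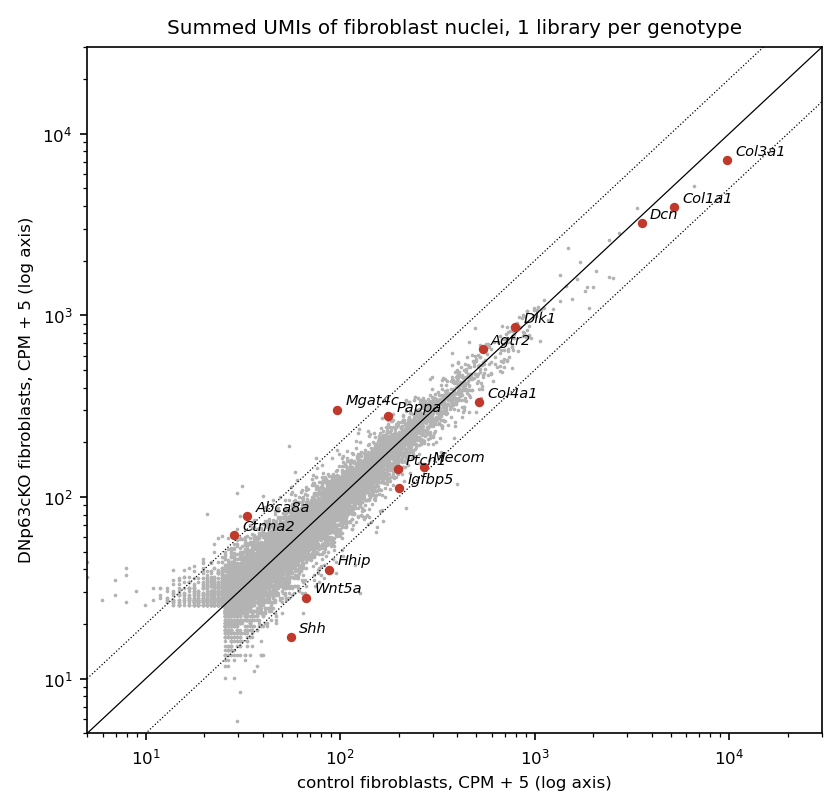
Level of each gene in control (x axis) and DNp63cKO (y axis) fibroblasts as CPM + 5 on log axes, for genes with 20 or more CPM in a library; the solid line marks equal levels, the dotted lines a 2-fold difference, and named genes are red. Mgat4c, Abca8a and Ctnna2 lie above the upper dotted line, Hhip, Wnt5a and Shh below the lower one, and Col1a1 and Col3a1 between the solid line and the lower one.

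Mgat4c, a glycosyltransferase gene of the N-glycan pathway (mm10 chromosome 10, 101681487 to 102391469, plus strand), had the highest ratio among genes with 50 UMIs, 50 CPM and at least as much RNA in DNp63cKO fibroblasts as in all other kept nuclei of that library. It had 350 UMIs in DNp63cKO and 94 in control fibroblasts, or 298 CPM (267 to 331) and 91.9 CPM (74.2 to 112), a log2 ratio of 1.64 (1.36 to 2.04). An Mgat4c UMI was found in 100 and 45 nuclei, and in 8.75% (6.82 to 11.01%) and 4.10% (2.72 to 5.91%) after thinning. Smooth muscle nuclei had 10.2 and 8.85 CPM and epithelial nuclei 7.26 and 2.26 CPM, far below the fibroblasts of either library. Most of it was in sub-cluster 4, where 48 of 125 DNp63cKO and 22 of 98 control nuclei had a UMI, at 1432 and 447 CPM. A single DNp63cKO nucleus carried 28 of the 350 UMIs. In sub-cluster 3 the levels were 289 and 145 CPM, from 43 and 20 UMIs. Over all alternatives run, the ratio lay between 1.49 and 2.19.

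Abca8a and Abca9, neighbouring genes of lipid transporters on mm10 chromosome 11 (110025634 to 110095978 and 110100749 to 110168196, minus strand), were both higher in DNp63cKO. Abca8a had 73.2 CPM (58.5 to 90.4) against 28.3 (18.98 to 40.7), a log2 ratio of 1.23 (0.75 to 2.03), with 2.56 and 2.53 CPM in smooth muscle nuclei. In sub-cluster 4 it stood at 171 against 36.5 CPM (30 and 4 UMIs) and in sub-cluster 9 at 225 against 184 CPM (16 and 7 UMIs). One nucleus held 12 of its 86 DNp63cKO UMIs. Abca9 had 23.8 and 8.79 CPM, a ratio of 1.06 (0.31 to 2.71), from 28 and 9 UMIs. The genes are close relatives, and how reads that fit both were counted is not stated by the labels.

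Ctnna2, a neuronal alpha-catenin, had 57.0 against 23.5 CPM (log2 1.12) and Bbs9, a part of the cilium's BBSome, 83.4 against 36.2 CPM. Zbtb16, which encodes the zinc finger factor PLZF, had 94.4 against 44.0 CPM, and in smooth muscle nuclei it was also higher, 95.9 against 46.8 CPM. Bvht, a long noncoding RNA, was higher in fibroblasts, smooth muscle and epithelial nuclei alike, with log2 ratios of 1.34, 1.34 and 1.08. Under the same limits, Nrbf2, Plekhj1, Papss2, Izumo4, Nova1 and Dchs2 followed with log2 ratios from 0.97 to 0.90.

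Among lower genes with 50 UMIs, 50 CPM and at least as much RNA in control fibroblasts as in all other kept control nuclei, the lowest ratio was that of Hhip, which encodes a membrane protein that binds and holds back hedgehog ligands and is itself induced by hedgehog (mm10 chromosome 8, 79965851 to 80058006, minus strand). Hhip had 41 UMIs in DNp63cKO and 85 in control fibroblasts, or 34.9 CPM (25.0 to 47.3) and 83.1 CPM (66.3 to 103), a log2 ratio of -1.14 (-1.83 to -0.70). A Hhip UMI was seen in 2.29% (1.34 to 3.64%) and 5.32% (3.73 to 7.32%) of thinned fibroblasts. It was seen in 0.645% and 1.02% of thinned epithelial nuclei and in 8.06% and 12.3% of thinned smooth muscle nuclei. Smooth muscle nuclei had more Hhip than fibroblasts and also less in DNp63cKO, 130 against 221 CPM (log2 -0.74), and epithelial nuclei had 9.49 and 10.5 CPM. The part of smooth muscle RNA in the fibroblast value was not tested. Within the fibroblasts, the CPM of Hhip was lower in DNp63cKO in each of sub-clusters 1 to 9, on 0 to 20 UMIs a library. The values were 24.9 against 111 CPM in sub-cluster 1, 32.5 against 79.7 in 2 and 60.5 against 86.7 in 3. Sub-clusters 4 and 5 each had 4 UMIs in DNp63cKO and 3 in control, and sub-clusters 5 to 8 are among the doubtful ones. Without the doubtful sub-clusters the ratio was -1.28. With the estimated free RNA subtracted it was -1.75.

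Other genes of hedgehog signalling did not follow Hhip as a group. Of 6 targets with 20 or more UMIs (of 8 listed), 2 were higher and 4 lower, 1 of them (Hhip) 2-fold lower, against 0.765% of all genes with 20 UMIs. Ptch1, the hedgehog receptor and a target of the pathway (mm10 chromosome 13, 63508328 to 63573598, minus strand), had 138 against 193 CPM, a log2 ratio of -0.47 (-0.79 to -0.17), and -0.71 in smooth muscle nuclei. Gli1, the effector whose own transcription reads out the pathway, had 124 against 115 CPM, a ratio of 0.10 (-0.25 to 0.47). Bmp4, the ligand that ureteric mesenchyme makes in answer to hedgehog, had 80.8 against 90.9 CPM (-0.16, -0.60 to 0.26; 0.10 without the doubtful sub-clusters) in fibroblasts and 46.0 against 78.4 CPM in smooth muscle nuclei. Foxf1, a mesenchymal hedgehog target, had 31.5 against 37.1 CPM (-0.21, and 0.11 without the doubtful sub-clusters). The median of the 6 was -0.18 in fibroblasts and -0.57 in smooth muscle, and the fibroblast median was 0.10 without the doubtful sub-clusters, so its direction depends on those nuclei. Of 9 genes of hedgehog reception, 7 were lower and 2 higher, with Gas1, a co-receptor, at 172 against 216 CPM (-0.32, -0.61 to -0.05) and Smo at 110 against 113 CPM. Shh, the ligand of the epithelium, was itself at 11.9 against 50.8 CPM in fibroblasts and at 43.0 against 126 CPM in epithelial nuclei.

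WNT genes were evenly split, with 14 higher and 15 lower of 29 and a median of -0.05, which was 0.00 without the doubtful sub-clusters. Wnt5a, a ligand of the non-canonical branch (mm10 chromosome 14, 28504750 to 28527448, plus strand), was the 1 member 2-fold lower, at 23.0 against 61.6 CPM (log2 -1.25, -2.13 to -0.75). Epithelial nuclei held more Wnt5a, 84.8 against 170 CPM. A UMI was seen in 1.75% and 3.65% of thinned fibroblasts against 4.77% and 11.01% of thinned epithelial nuclei. The part of epithelial RNA in the fibroblast value was not tested. With the estimated free RNA subtracted the ratio was -2.28. The subtraction took a larger share from DNp63cKO and set levels below 0 to 0. The size of that ratio can thus rest on the 5 CPM added to both levels. Ror1, a WNT5A receptor, had 346 against 294 CPM (log2 0.23). Wnt2, found mostly in sub-cluster 3, where it stood at 101 CPM, had 16.2 against 29.3 CPM over all fibroblasts (-0.70, -1.77 to 0.02).

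The BMP list had 25 measured members, 8 higher and 17 lower (median -0.16, and -0.04 without the doubtful sub-clusters). Bmpr1b had 54.5 against 97.7 CPM, a ratio of -0.79 (-1.32 to -0.38), and 94.6 against 82.1 CPM in smooth muscle nuclei. Bmpr1a, the other type I receptor of BMP4, had 183 against 239 CPM (-0.38, -0.66 to -0.12), and Smad6, an inhibitor that BMP signals induce, had 108 against 142 CPM (-0.38, -0.75 to -0.04). The ID genes, direct targets of BMP signals, lay close to equal: Id1 had 268 and 280 CPM, Id2 321 and 317, and Id3 229 and 257. Bmp7 was 2-fold lower on few counts, 5.11 against 16.6 CPM, below its 48.0 and 58.9 CPM in epithelial nuclei.

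Of 21 collagens, 15 were lower and 6 higher in DNp63cKO fibroblasts, none of them 2-fold. Of all genes with 20 UMIs, 49.7% were lower and 50.3% higher. They had a median of -0.15 in fibroblasts, -0.15 in smooth muscle and 0.42 in epithelial nuclei. The fibroblast median was -0.05 with the estimated free RNA subtracted and -0.09 without the doubtful sub-clusters. Col3a1, which forms the fine fibrils of soft tissue, had 7132 CPM in DNp63cKO and 9710 in control (log2 -0.44, -0.49 to -0.40). Col1a1 had 3956 and 5224 CPM (-0.40) and Col1a2 5154 and 6561 CPM (-0.35, -0.40 to -0.30). Each of the 3 was lower under all alternatives run. With the estimated free RNA subtracted, the ratios were -0.30 for Col3a1, -0.25 for Col1a1 and -0.20 for Col1a2, nearer to 0 than without the subtraction. Col25a1, a transmembrane collagen, went the other way with 210 against 156 CPM (0.42, 0.13 to 0.72), but had a ratio of -0.80 in the nuclei with Y-linked UMIs and no Xist.

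Elastic fibre genes gave 12 lower and 8 higher of 20, with a median of -0.24, and 0.07 in smooth muscle nuclei. The fibroblast median was -0.11 with free RNA subtracted and -0.13 without the doubtful sub-clusters. Eln had 205 against 320 CPM (-0.63, -0.89 to -0.40), with a UMI in 124 of 932 and 183 of 919 nuclei. Fbln2 had 129 against 203 CPM (-0.63) and Lox, the enzyme that crosslinks elastin and collagen, 153 against 200 CPM (-0.38). Efemp1 was the main exception, at 40.0 against 21.5 CPM (0.76, 0.14 to 1.70). Among proteoglycans and matrix glycoproteins, 17 were lower and 10 higher of 27. Thbs2, a matricellular thrombospondin, had 289 against 455 CPM (-0.65, -0.86 to -0.45), Sparc 1365 against 1806 CPM (-0.40), and Smoc2 141 against 206 CPM (-0.53). Postn, periostin, had 2836 against 2697 CPM (0.07), so not all abundant matrix genes were lower.

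Basement membrane genes had the lowest median of the matrix lists, -0.37, with 14 lower and 5 higher of 19. Col4a1 and Col4a2, the chains of the common type IV collagen, had 329 against 510 CPM (-0.62, -0.82 to -0.44) and 148 against 250 CPM (-0.74, -1.04 to -0.47). Their genes overlap at their starts on opposite strands. Smooth muscle nuclei had more of both, 638 against 852 CPM of Col4a1, and sub-cluster 7, with its contractile genes, had 1221 CPM. Without the doubtful sub-clusters the ratio of Col4a1 was -0.28 and the median of the list -0.24. Lamb1 (145 against 217 CPM) and Hspg2, perlecan (133 against 182 CPM), were also lower, while Nid1 had 242 and 247 CPM.

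**Figure D5:**
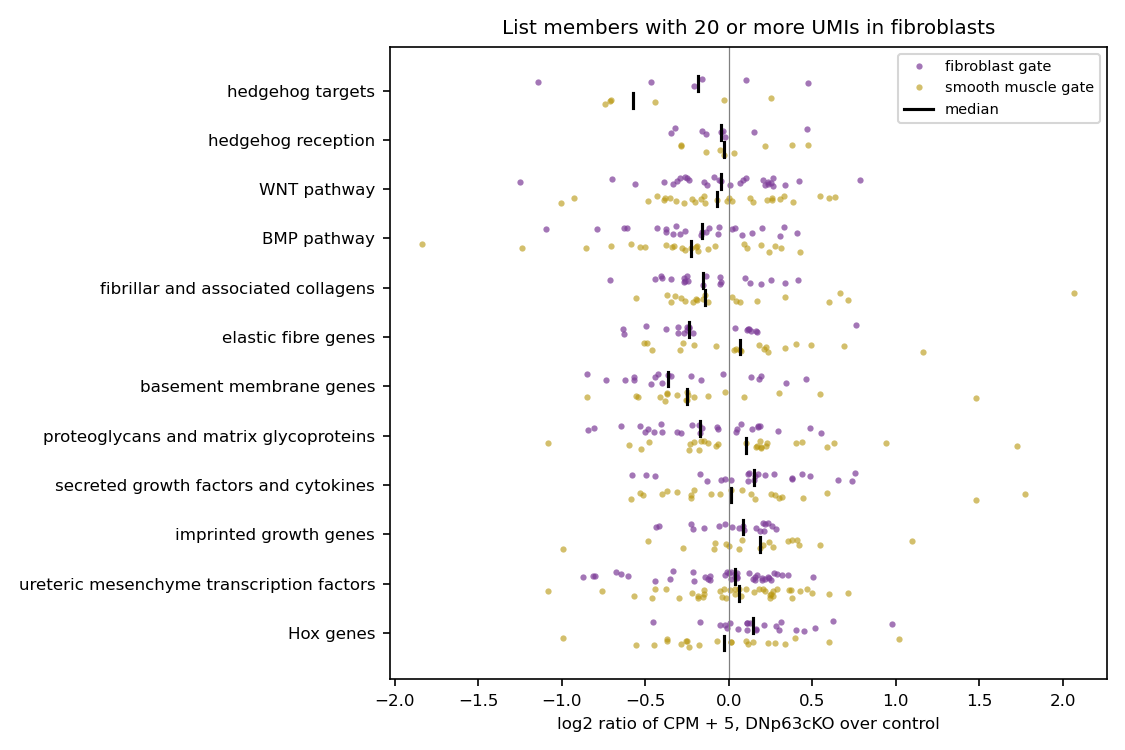
Log2 ratio of DNp63cKO over control for each list member with 20 or more UMIs in fibroblasts (x axis), in fibroblast (purple) and smooth muscle (yellow) nuclei, by gene list (rows), with a black bar at each median. Matrix lists lie mostly below 0 in fibroblasts and secreted growth factors and Hox genes mostly above 0.

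Contractile genes gave 17 lower and 3 higher of 20, with a median of -0.22. Their summed level was 7288 CPM in DNp63cKO and 8615 in control fibroblasts, and Acta2 was at 1233 and 1547 CPM. Without the doubtful sub-clusters the median was 0.19, opposite in sign.

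Secreted growth factors had 16 higher and 7 lower members of 23, and a median of 0.15 that kept its sign under all alternatives run. Synaptic and IgLON adhesion genes were split likewise, 18 and 7 of 25 (median 0.22). Fgf10 had 118 CPM in DNp63cKO and 86.0 in control (log2 0.44, 0.06 to 0.86), with a UMI in 83 and 52 nuclei. Vegfd, a growth factor for lymphatic vessels, had 220 against 155 CPM (0.49, 0.21 to 0.79), and Ptn, pleiotrophin, 219 against 167 CPM (0.38, 0.10 to 0.68). The neuregulin genes Nrg1 and Nrg3, ligands of ERBB receptors, had 68.9 against 42.0 CPM (0.65) and 42.5 against 23.5 CPM (0.74). Angpt1 had 29.8 against 15.6 CPM (0.75), but -0.14 after thinning. Of the 7 lower members, Cxcl12, a chemokine of stromal cells, had 390 against 532 CPM (-0.44, -0.63 to -0.27), and Fgf1 had 23.8 against 38.1 CPM (-0.58, -1.43 to 0.06). Igf1, which was 39.6 and 61.9 CPM in smooth muscle nuclei, stood at 351 and 358 CPM in fibroblasts.

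In the insulin-like growth factor system 6 genes were higher and 10 lower of 16. Pappa, a protease that frees IGF from its binding proteins, had 274 CPM in DNp63cKO and 172 in control (log2 0.66, 0.40 to 0.95), with a UMI in 199 and 115 nuclei, while smooth muscle nuclei had 37.1 against 72.0 CPM. Igfbp5 had 107 against 195 CPM (-0.84, -1.20 to -0.54), with 280 and 350 CPM in epithelial nuclei. Igfbp2 had 26.4 against 5.86 CPM (1.53, 0.89 to 3.72), from 15 and 6 nuclei, with 13 of its 31 DNp63cKO UMIs in 1 of them. Among imprinted growth genes, 12 of 19 were higher and 7 lower (median 0.09, and 0.05 without the doubtful sub-clusters). Meg3, a maternally expressed noncoding RNA, had 3883 against 3365 CPM (0.21), H19 320 against 262 CPM (0.28) and Cdkn1c, a cell cycle inhibitor, 191 against 256 CPM (-0.42).

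Of 41 transcription factors of ureteric mesenchyme, 24 had more RNA in DNp63cKO and 17 less (median 0.04, and 0.01 without the doubtful sub-clusters). Tcf21 had 328 against 281 CPM (0.22, 0.00 to 0.45), while Tshz3 and Meis2 had ratios of 0.00 and 0.05. Mecom had 142 against 265 CPM (-0.88, -1.19 to -0.61), Klf4 37.4 against 59.6 CPM (-0.61) and Hic1, a factor of quiescent mesenchymal progenitors, 19.6 against 38.1 CPM (-0.81). Mecom was at 480 and 629 CPM in epithelial nuclei, above its fibroblast level, and with free RNA subtracted its ratio was -4.94. The subtraction took a larger share from DNp63cKO and set levels below 0 to 0. The size of that ratio can thus rest on the 5 CPM added to both levels and is not a measured fold change. The part of free RNA in the fibroblast level of Mecom was not tested further. Hox genes gave 17 higher and 5 lower of 22, with a median of 0.14, which was 0.04 without the doubtful sub-clusters. Hoxa9 had 204 against 153 CPM (0.40, 0.12 to 0.71), and in smooth muscle nuclei the median of the Hox genes was -0.03. In the retinoic acid list 5 genes were higher and 7 lower of 12. Rarb, a receptor that retinoic acid induces, had 170 against 110 CPM (0.60, 0.28 to 0.97), Rxra 51.1 against 86.0 CPM (-0.70) and Dhrs3, another induced gene, 152 against 207 CPM (-0.43).

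The rule leaves out nuclei with several cell division genes. Mitosis genes outside the rule gave 12 higher and 10 lower of 22, and DNA replication genes 6 higher and 21 lower of 27, with a median of -0.20 that was -0.22 in smooth muscle nuclei. Ccnd2, a cyclin of early cell cycle, had 173 against 326 CPM (-0.90) in fibroblasts and 436 against 1169 CPM in epithelial nuclei. Nuclear genes of oxidative phosphorylation gave 16 higher and 26 lower of 42, and p53 targets 8 and 6 of 14, with medians of -0.07 and 0.03. The p53 median was 0.14 without the doubtful sub-clusters.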

How the data were processed

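RNA of single nuclei was measured in 2 libraries, DNp63cKO and control, each from 1 pool of mice, with a microwell and bead kit (Singleron GEXSCOPE, per the labels). The authors deposited raw UMI counts, whole numbers for each gene in each nucleus with no scaling. Per the submitters' processing notes, the build was mm10 and the tools included Seurat 4.0.5, R 4.0.5, STAR 2.7.11a and STARsolo, with no role stated. For the annotation, the barcode filter and the treatment of introns, these sources are silent. The deposited tables hold 5528 and 9062 nuclei with 9859451 and 16063644 UMIs. Coordinates come from GENCODE M21, which held 32522 of the 32589 gene IDs.

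UMIs of the chosen nuclei were summed per library and divided by their total (CPM). Ratios are log2(CPM + 5), DNp63cKO over control, so they understate differences of low genes. A gene counted as 2-fold different at a log2 of 1 or more either way, with 20 UMIs in all and 20 CPM in a library. List counts and medians use members with 20 UMIs. Intervals are Clopper-Pearson for shares, Poisson for CPM and conditional binomial for ratios, all at 95% and for counting error only. Free RNA was estimated as uroplakin CPM in fibroblasts over that in all kept nuclei, which takes all uroplakin RNA of fibroblasts as free. For the subtraction, this share of the profile of all kept nuclei was removed, 42.7% in DNp63cKO and 31.0% in control. Levels below 0 were set to 0, so ratios of genes high in other nuclei can rest on the 5 CPM added. To compare detection across depths, nuclei with at least 700 UMIs were thinned to 700. Sub-clusters came from Leiden clustering (leidenalg 0.10.2) of fibroblasts on 1000 variable genes, 15 components and 15 neighbours at resolution 0.5. No doublet caller was run. The limits on other types act against doublets, and stricter limits were an alternative. Scripts used python 3.11.15, numpy 2.4.6, scipy 1.17.1, pandas 2.3.3 and matplotlib 3.10.9, and the ratios were tested on simulated data.

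The members and the gene lists were chosen with earlier results of these data known. Named genes were the 12 of the rule; up to 4 per list with the ratios farthest from 0, plus pathway genes whose level is given; the 12 highest and 12 lowest ratios among genes with 50 UMIs and 50 CPM that were at least as high in fibroblasts as in other kept nuclei; the 15 highest over smooth muscle in both libraries; and 4 leading genes per sub-cluster. Sub-cluster genes named beyond these 4, and the genes with most UMIs in 1 nucleus, were picked after their values were seen. Mitochondrial, haemoglobin and unnamed genes were left out of the rankings. A few genes that these rules name are not reported here. With 1 library per genotype, no test between genotypes was made.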

Additional observations from a re-analysis of the deposited data

Results flagged for a closer look

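Of 237 named genes compared between fibroblasts and smooth muscle nuclei, 3 had ratios of opposite sign in the 2 cell types with counting intervals on opposite sides of 0. The difference between the cell types was not tested, since each genotype has 1 library. Pappa, the IGF-releasing protease, was higher in DNp63cKO fibroblasts, 274 against 172 CPM (log2 0.66, 0.40 to 0.95), and lower in DNp63cKO smooth muscle nuclei, 37.1 against 72.0 CPM (-0.87, -1.66 to -0.29). Cdkn1c, the imprinted cell cycle inhibitor, was lower in DNp63cKO fibroblasts, 191 against 256 CPM (-0.42, -0.69 to -0.16), and higher in smooth muscle nuclei, 92.1 against 40.4 CPM (log2 above 1, 0.57 to 1.84). Hba-a1, a globin gene of red cells, was lower in DNp63cKO fibroblasts, 337 against 428 CPM (-0.34, -0.54 to -0.15), and higher in smooth muscle nuclei, 226 against 152 CPM (0.56, 0.24 to 0.92). Without the doubtful sub-clusters its fibroblast ratio was 0.55, the same sign as in smooth muscle nuclei, so this flag depends on those nuclei.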

How the results depend on the processing

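The counts of 80 genes 2-fold higher and 68 lower in DNp63cKO fibroblasts moved under many settings. They were 150 and 184 with stricter limits on other types, 150 and 157 after thinning to 700 UMIs, and 317 and 156 in the 131 and 58 nuclei that had Y-linked UMIs and lacked Xist, where 3311 genes were counted. A pseudocount of 1 CPM gave 131 and 136 and one of 20 CPM gave 14 and 11. Subtracting the estimated free RNA gave 311 and 571, no filter on low counts 232 and 151, and a minimum of 50 CPM 23 and 25. Leaving out sub-clusters 5, 6, 7, 8, 10 and 11, a setting chosen after seeing the data, gave 140 and 143, and 448 in place of 252 genes lower than in smooth muscle. The fibroblast share in DNp63cKO was 24.1% with 2 or more fibroblast genes, 12.5% with 4 or more, 9.52% with stricter limits, 15.0% thinned and 11.1% without those sub-clusters. In control it was 15.2%, 7.40%, 6.22%, 8.91% and 6.82%, and 9.56% with 500 or more genes per nucleus. The basement membrane median was -0.69 in the Y-linked nuclei. Of 237 named genes, 88 had a ratio of opposite sign under 1 or more settings, 66 when the Y-linked nuclei are left aside. Among ratios of 2-fold or more, those reversed were Cntn5 (0.17 with 4 or more fibroblast genes), Msln (-1.69 with free RNA subtracted), Pcp4l1 (0.37 with stricter limits, 0.18 without the sub-clusters), Sema3e (-0.29 in the Y-linked nuclei) and Ttn (0.28 thinned). Of smaller ratios with intervals on 1 side of 0, the Y-linked nuclei turned those of Grm7 (-0.41), Efemp1 (-0.46), Vegfd (-0.31), Cdkn1c (0.58), Dhrs3 (0.47), Cxcl12 (0.06) and Col25a1 (-0.80), among others. Where a setting holds fewer nuclei or another pseudocount, its construction changes the counts; other causes were not tested. No paired analysis was possible because each genotype has 1 library, and for the same reason no library could be left out. Depth limits genes under about 20 UMIs most.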
